A study of Mus musculus with 21 samples.

Results

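The 10 genes described here encode core proteins of the PIWI-interacting RNA (piRNA) pathway of the mouse male germ line: *Piwil1*, *Piwil2*, *Tdrd1*, *Tdrd5*, *Tdrd6*, *Tdrd9*, *Mael*, *Mov10l1*, *Asz1* and *Ddx4*. They were chosen by name, and all 10 were found among the 24456 genes counted in each of 21 RNA-seq libraries. All 10 passed the filter on low counts in every fit. RNA had been prepared from fractionated testis cells labelled pachytene spermatocytes, round spermatids, condensing spermatids and spermatozoa, from mice labelled *H2al2* WT and *H2al2* KO. *H2al2* encodes H2A.L.2, a histone H2A variant of late spermatids. The first 3 stages had 3 libraries per genotype, and spermatozoa had 2 wild-type libraries and 1 KO library. The labels give no age, strain or treatment, and how the *H2al2* allele was made is not given in the sources used here.

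piRNAs are small RNAs that guide PIWI proteins to complementary transcripts, and in the testis they are best known for silencing transposons and for the very abundant piRNAs of meiotic pachytene cells. Long precursor transcripts are unwound and cut into fragments, largely at germ granules between mitochondria, and the fragments are loaded onto PIWI proteins and trimmed. Tudor domain proteins bind methylated arginines of PIWI proteins and act as scaffolds of these granules, which in round spermatids become the chromatoid body.

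Reads assigned to genes numbered 2772995 to 8201682 per library (median 6872271), and the members had 63 to 18095 reads per library in the first 3 stages and 7 to 988 in spermatozoa. Levels are given as normalized CPM, the read count relative to the reads on genes (CPM) after trimmed mean of M-values (TMM) scaling over all 21 libraries, and levels of different genes are compared only per kilobase of annotated exon. The targeted gene, listed as *H2afb1* (mm10, chrX:117014757-117015104), had 200.6 to 212 normalized CPM in wild-type and 20.7 to 25.4 in KO round spermatids, and KO libraries were below wild-type libraries in all 4 stages. All 8 round spermatid markers and all 10 condensing spermatid markers rose from wild-type pachytene spermatocytes to round spermatids, whereas 5 of 10 spermatocyte markers fell and 3 rose. The summed spermatocyte markers were 991 to 1954 normalized CPM in wild-type pachytene spermatocytes and 1079.9 to 1382 in wild-type round spermatids. Wild-type round spermatid replicate 1 stood apart from replicates 2 and 3. Over genes with 100 to under 1000 summed reads, the mean chi-square between replicates 2 and 3 was 1.06, close to sampling noise, against 4.44 and 4.49 for replicate 1 with each of them. Replicates 2 and 3 differed more among genes with at least 10000 summed reads (mean chi-square 8.76) and were kept as separate samples.

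In wild-type pachytene spermatocytes, which are in meiotic prophase, the members spanned a wide range of RNA levels. Per kilobase, *Mael*, which encodes a germ granule protein needed for transposon silencing, stood highest at 634 ± 40.0 normalized CPM per kb (SD, n = 3). *Tdrd6*, a large tudor protein of the chromatoid body, had 302 ± 2.88 normalized CPM per kb. *Piwil1* (MIWI), a PIWI protein of pachytene piRNAs, had 279 ± 14.4 normalized CPM per kb, both also with n = 3. *Ddx4*, the germ cell RNA helicase also known as VASA or MVH, followed at 181 ± 42.2 normalized CPM per kb, with the largest spread of the 10 in absolute terms.

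The next 5 lay below these. *Tdrd1*, a tudor scaffold that binds MILI, had 108 ± 5.23 normalized CPM per kb, *Piwil2* (MILI) itself 87.6 ± 6.80, *Tdrd5*, a tudor protein of piRNA processing and chromatoid body assembly, 80.3 ± 1.14, *Tdrd9*, a tudor and helicase protein, 56.3 ± 4.81, and *Mov10l1*, the helicase that binds piRNA precursors, 37.1 ± 3.003 (all SD, n = 3). The *Piwil2* and *Tdrd5* levels differed by about 1 SD, so their order was within the spread. *Asz1* (GASZ), which anchors the granules to the mitochondrial surface, had the lowest level, 13.5 ± 2.20 normalized CPM per kb.

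From wild-type pachytene spermatocytes to round spermatids, the first haploid cells, 8 of the 10 members fell and none rose (edgeR quasi-likelihood test, Benjamini-Hochberg adjusted p under 0.05), where 35.9% of 14011 genes tested fell and 34.4% rose. The median log2 fold change of the members was -1.65 against -0.02 over all genes tested. The size of the fall separated the members. *Piwil1*, *Tdrd5*, *Tdrd1* and *Piwil2* dropped steeply, *Mov10l1* and *Tdrd9* fell moderately, and *Tdrd6* and *Asz1* fell slightly. *Mael* and *Ddx4* did not pass the test. In bulk RNA from fractions, fewer cells of a type and less RNA per cell cannot be told apart.

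*Piwil1* was at 1134, 1216 and 1100.4 normalized CPM in the 3 wild-type pachytene libraries and at 77.3, 56.4 and 56.8 in the round spermatid libraries. The 2 stages were far apart, and the change was -4.16 ± 0.17 (log2 fold change ± SE, edgeR adjusted p = 3.94e-09), a level 17.8-fold lower. Of 14011 genes tested, 19 had a lower log2 fold change. *Piwil2* went from 440.4, 458 and 393 to 73.5, 63.7 and 59.5 normalized CPM, a log2 fold change of -2.69 ± 0.14 (SE, edgeR adjusted p = 1.02e-08). The fall of this second PIWI gene was the smaller one in size, and the ratio of *Piwil1* to *Piwil2* per kilobase went from 3.07 to 3.34 in pachytene libraries to 1.06 to 1.25 in round spermatid libraries.

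Among the tudor genes, *Tdrd5* dropped about as steeply as *Piwil1*, and *Tdrd6* fell least of the 4 members of this kind. *Tdrd5* had 297, 305 and 303 normalized CPM in pachytene spermatocytes and 17.8, 17.7 and 14.9 in round spermatids (log2 fold change -4.14 ± 0.15, SE, edgeR adjusted p = 3.94e-09). *Tdrd1* had 614, 586 and 557 against 59.7, 33.7 and 33.4 (-3.77 ± 0.22, SE, edgeR adjusted p = 2.55e-08), and the wild-type round library with the highest value was replicate 1. Without that replicate the count of members that fell was still 8. *Tdrd9* had 277, 290.4 and 245 against 109.9, 91.7 and 90.7 normalized CPM (-1.45 ± 0.12, SE, edgeR adjusted p = 3.44e-07).

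*Tdrd6* had 2146, 2145 and 2109.9 normalized CPM in pachytene spermatocytes and 1740.5, 1597 and 1531 in round spermatids, so the stages did not overlap, with a log2 fold change of -0.37 ± 0.13 (SE, edgeR adjusted p = 0.0247). This call was lost when wild-type pachytene replicate 1 (edgeR adjusted p = 0.0619), wild-type round replicate 2 (edgeR adjusted p = 0.0817) or wild-type round replicate 3 (edgeR adjusted p = 0.1001) was left out, and with at least 10 counts required in every library (log2 fold change -0.28, edgeR adjusted p = 0.0793). With wild-type round replicates 2 and 3 summed it was lost too (log2 fold change -0.34, edgeR adjusted p = 0.0898).

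*Mov10l1*, which acts at the first step of piRNA processing, had 157, 164 and 139.8 normalized CPM against 49.0, 38.5 and 38.3, a log2 fold change of -1.85 ± 0.14 (SE, edgeR adjusted p = 1.37e-07). *Asz1* had 25.8, 19.08 and 25.6 against 14.1, 16.7 and 16.8 (-0.54 ± 0.16, SE, edgeR adjusted p = 0.00776), with the lowest counts of any member in the pachytene libraries. *Mael* was at 1117, 1157 and 1022 against 1174, 1197 and 1185 normalized CPM, all 3 round libraries being higher by a small margin. Its log2 fold change was 0.13 ± 0.12 (SE, edgeR adjusted p = 0.327), and with library size as the only scaling, which puts the median of all genes at -0.20, it was -0.05. *Ddx4* had 587, 404 and 649 against 625, 692 and 678, overlapping between stages (0.30 ± 0.16, SE, edgeR adjusted p = 0.113). Without wild-type pachytene replicate 3 it was called higher in round spermatids (log2 fold change 0.45, edgeR adjusted p = 0.0152).

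**Figure D1:**
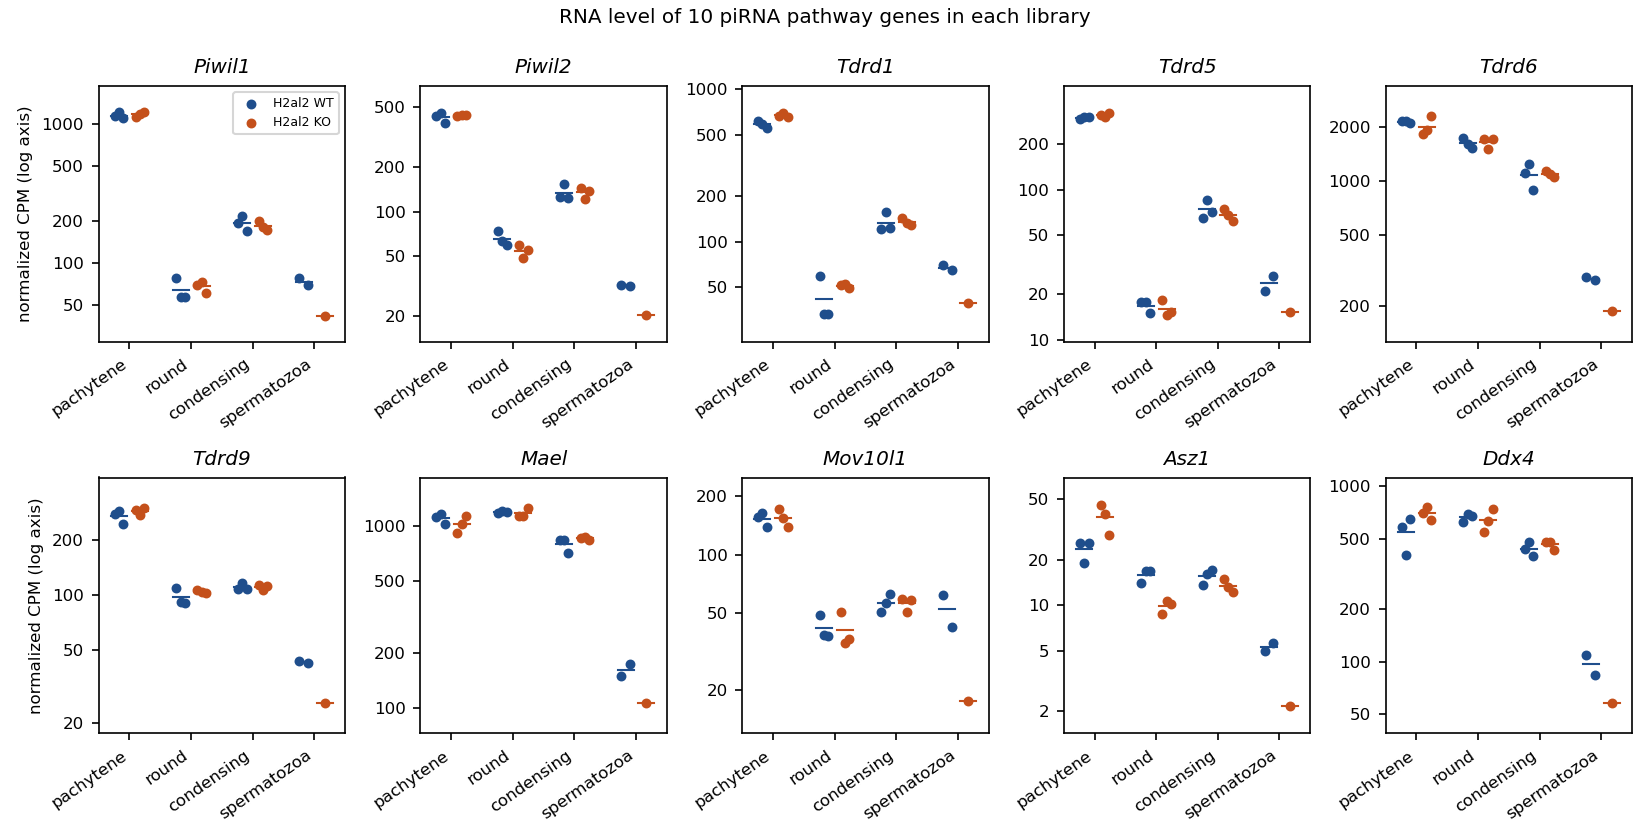
Normalized CPM (log axis, a separate scale per gene) of the 10 members in each library, by stage, with wild-type libraries in blue and *H2al2* KO libraries in orange. Short lines are group means, of 3 libraries each except in spermatozoa (2 wild-type libraries and 1 KO library). *Piwil1*, *Tdrd1* and *Tdrd5* drop more than 10-fold from pachytene to round spermatids and are higher again in condensing spermatids, while *Mael* and *Ddx4* lie within or near their pachytene range in round spermatids and lowest in spermatozoa.

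In wild type, 3 genes made up most of the members' RNA after meiosis. *Mael*, *Tdrd6* and *Ddx4* together held 61.6% to 63.7% of the members' summed CPM per kb in wild-type pachytene libraries and 92.5% to 93.8% in round spermatid libraries, while the sum itself went from 1779 ± 40.4 to 1215 ± 13.7 normalized CPM per kb (SD, n = 3). The other 7 members had 4.48 to 20.3 normalized CPM per kb in wild-type round spermatids.

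RefSeq promoter windows, 250 bases before to 50 after a transcription start, were found for 8 of the 10 members (build GRCm38.p6, 10 windows in all). They are shown for members of each behaviour because the 10 genes did not move as a block, and because the transcription factor A-MYB, encoded by *Mybl1*, is known to drive many piRNA pathway genes in pachytene cells. The capitals mark the word CAACTG, the word CAACGG, the word TAACTG or the word TAACGG, forms of the MYB binding motif, on either strand.

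*Piwil1* (chr5:128735996-128736295, plus strand) and *Tdrd5* (chr1:156303299-156303598, minus strand) are the pair with the steepest fall, *Mov10l1* (chr15:88982744-88983043, plus strand) fell moderately, and *Mael* (chr1:166238695-166238994, minus strand) and *Ddx4* (chr13:112652261-112652560, minus strand) did not pass the test.
*Piwil1*: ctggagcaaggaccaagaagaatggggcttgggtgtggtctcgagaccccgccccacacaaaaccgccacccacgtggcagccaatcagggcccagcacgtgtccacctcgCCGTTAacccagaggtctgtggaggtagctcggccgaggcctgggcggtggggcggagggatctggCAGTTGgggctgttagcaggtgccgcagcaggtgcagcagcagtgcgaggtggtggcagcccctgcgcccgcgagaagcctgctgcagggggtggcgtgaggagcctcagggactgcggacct
*Tdrd5*: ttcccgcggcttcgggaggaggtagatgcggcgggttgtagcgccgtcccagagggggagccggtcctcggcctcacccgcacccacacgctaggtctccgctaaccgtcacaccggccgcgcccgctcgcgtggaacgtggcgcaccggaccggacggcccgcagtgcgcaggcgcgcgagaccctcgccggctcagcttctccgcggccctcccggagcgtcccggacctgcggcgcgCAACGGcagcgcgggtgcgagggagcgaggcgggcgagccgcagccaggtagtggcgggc
*Mov10l1*: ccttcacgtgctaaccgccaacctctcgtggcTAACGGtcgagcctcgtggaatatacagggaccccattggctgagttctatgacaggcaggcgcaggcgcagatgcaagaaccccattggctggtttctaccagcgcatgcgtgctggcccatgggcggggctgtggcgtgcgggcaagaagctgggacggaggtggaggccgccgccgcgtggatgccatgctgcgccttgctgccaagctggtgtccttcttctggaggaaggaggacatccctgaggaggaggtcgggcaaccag
*Mael*: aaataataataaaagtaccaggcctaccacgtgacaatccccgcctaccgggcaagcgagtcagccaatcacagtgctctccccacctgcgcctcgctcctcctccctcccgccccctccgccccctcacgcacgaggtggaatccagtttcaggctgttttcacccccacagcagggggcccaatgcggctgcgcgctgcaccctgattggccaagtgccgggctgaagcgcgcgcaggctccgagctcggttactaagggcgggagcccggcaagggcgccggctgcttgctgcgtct
*Ddx4*: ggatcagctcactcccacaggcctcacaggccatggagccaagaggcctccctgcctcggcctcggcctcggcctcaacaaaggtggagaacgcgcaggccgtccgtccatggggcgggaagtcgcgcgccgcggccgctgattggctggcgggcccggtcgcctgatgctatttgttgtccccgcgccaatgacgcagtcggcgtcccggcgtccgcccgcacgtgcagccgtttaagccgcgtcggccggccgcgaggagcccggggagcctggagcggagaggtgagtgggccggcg

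The *Piwil1* window held 2 of these words, on the strand opposite to the gene, and the windows of *Tdrd5* and *Mov10l1* held 1 each on the gene's own strand, that of *Tdrd5* starting 10 bases before the transcription start. No other member window held one. Across all 32851 promoter windows of this length 28.3% held at least 1 word, and 26.8% of the windows of genes tested here did, so 3 of 10 member windows is close to the background. A match is a description of letters and not a bound site. The 10 member windows had a median G and C content of 63.8%, against 60.0% over windows of tested genes. It ran from 45.0% in a *Tdrd1* window, 54.3% in *Asz1* and 55.7% in *Tdrd9* to 76.0% in *Tdrd5*. *Ddx4* had 72.0%, *Piwil1* 67.7% and *Mael* 65.0%. *Tdrd5*, *Piwil1*, *Ddx4* and *Mael* did not separate by this measure into those with a steep fall and those that did not pass. The member windows held a median of 20 CpG dinucleotides, against 19 over windows of tested genes. The *Tdrd5* window held 48 and that of *Ddx4* 38, whereas that of *Piwil1* held 18, that of *Tdrd9* 10 and a *Tdrd1* window 3.

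From wild-type round to condensing spermatids, in which the nucleus is being compacted, the members moved in both directions. 5 members rose, *Piwil1*, *Piwil2*, *Tdrd1*, *Tdrd5* and *Mov10l1*, where 28.3% of all genes tested rose, and 3 fell, *Tdrd6*, *Mael* and *Ddx4*, where 21.8% fell (edgeR, adjusted p under 0.05). *Tdrd9* and *Asz1* did not pass the test. The members that rose were 5 of the 6 that had fallen most at the previous step, and these comparisons share the round spermatid libraries. The median log2 fold change was 0.34 against 0.04 over all genes.

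*Tdrd5* rose most, to 65.1, 85.8 and 70.4 normalized CPM in the 3 condensing libraries (log2 fold change 2.16 ± 0.14, SE, edgeR adjusted p = 3.66e-07). *Tdrd1* reached 120.5, 156 and 122 (1.68 ± 0.21, SE, edgeR adjusted p = 3.95e-05), and *Piwil1* 193, 219 and 169 normalized CPM (1.63 ± 0.15, SE, edgeR adjusted p = 4.72e-06). *Piwil2* reached 126, 153 and 122.9 (1.05 ± 0.13, SE, edgeR adjusted p = 4.82e-05). In each of these 4 genes the lowest condensing library was above the highest round library. *Mov10l1* had 50.9, 56.5 and 62.9 normalized CPM, above the 49.0 of the highest round library, and its log2 fold change of 0.46 ± 0.14 (SE, edgeR adjusted p = 0.0139) missed the threshold without wild-type round replicate 2 (edgeR adjusted p = 0.0738), wild-type round replicate 3 (edgeR adjusted p = 0.0737) or wild-type condensing replicate 3 (edgeR adjusted p = 0.0536). With wild-type round replicates 2 and 3 summed it was missed too (log2 fold change 0.39, edgeR adjusted p = 0.0682).

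The 3 members that fell were the 3 with the highest levels per kilobase in round spermatids. *Tdrd6* had also fallen at the previous step, whereas *Mael* and *Ddx4* had not passed the test there. *Tdrd6* had 1108, 1244 and 889 normalized CPM in condensing spermatids (log2 fold change -0.56 ± 0.14, SE, edgeR adjusted p = 0.00421). *Mael* had 837, 836 and 706 (-0.55 ± 0.12, SE, edgeR adjusted p = 0.00189), and *Ddx4* 439, 479 and 398 normalized CPM (-0.57 ± 0.16, SE, edgeR adjusted p = 0.0113). *Tdrd9*, at 109, 117 and 108, overlapped with its round spermatid values (0.22 ± 0.12, SE), and so did *Asz1*, at 13.5, 16.1 and 17.0 (0.00 ± 0.16, SE).

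Markers of other cells moved over the same step. All 7 tested Sertoli cell markers and all 7 Leydig cell markers were higher in wild-type condensing than in round spermatids, with summed levels of 355 to 452 against 29.5 to 43.9 normalized CPM for Sertoli and 136 to 205 against 10.2 to 13.1 for Leydig cells, and 4 of 7 tested spermatogonium markers were higher (60.9 to 69.2 against 40.9 to 44.1). Of 4 tested peritubular myoid markers 3 were higher, but their list summed to 303 to 408 against 327 to 334 normalized CPM, overlapping. *Actg2* made up most of that sum, with means of 299 against 319. Of 5 tested macrophage markers 0 passed (20.9 to 28.9 against 17.9 to 22.8 normalized CPM summed). None of the defining markers in these lists was at 0 in condensing spermatids. The 10 spermatocyte markers summed to 1181 to 1394 against 1079.9 to 1382 normalized CPM, overlapping. Of them 3 were higher, *Hormad1* (log2 fold change 0.96), *Sycp3* (0.94) and *Meiob* (0.54), of the meiotic chromosome axis and recombination. Lower were 2, *Ccna1* (-0.78) and *Syce1* (-0.50). *Sycp2* (0.89, edgeR adjusted p = 0.125) and *Sycp1* (0.83, edgeR adjusted p = 0.0530) did not pass, nor did *Dmc1*, *Smc1b* and *Spo11* (-0.23 to -0.19). *Syce1*, *Smc1b* and *Ccna1* had the highest means in round spermatids, 376, 342 and 184, against 261, 288 and 105 in condensing spermatids. The part of these other cells in the rise of the 5 members was not tested.

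The return was partial. Relative to its wild-type pachytene mean, *Piwil1* stood at 5.52% in round and 16.8% in condensing spermatids, *Tdrd5* at 5.58% and 24.4%, *Tdrd1* at 7.22% and 22.7%, and *Piwil2* at 15.2% and 31.1%. *Mov10l1* stood at 27.3% and 36.9% and *Tdrd9* at 36.0% and 41.2%. *Tdrd6* was lower at each step, at 76.1% and then 50.6%. *Mael* and *Ddx4* were lower in condensing than in round spermatids, with *Mael* at 108% and 72.2%, and *Ddx4* at 122% and 80.3%. In condensing spermatids 9 of 10 members were below pachytene spermatocytes in wild type, where 35.7% of genes tested were, and *Ddx4* did not pass the test (log2 fold change -0.27 ± 0.16, SE, edgeR adjusted p = 0.152) unless wild-type pachytene replicate 2 was left out (-0.46, edgeR adjusted p = 0.00608). With at least 10 counts required in every library, *Mael* (-0.26, edgeR adjusted p = 0.0573) and *Asz1* (-0.38, edgeR adjusted p = 0.0514) did not pass. The largest of these differences was that of *Piwil1* (-2.52 ± 0.15, SE), and 7 genes of 14011 had a lower log2 fold change.

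**Figure D2:**
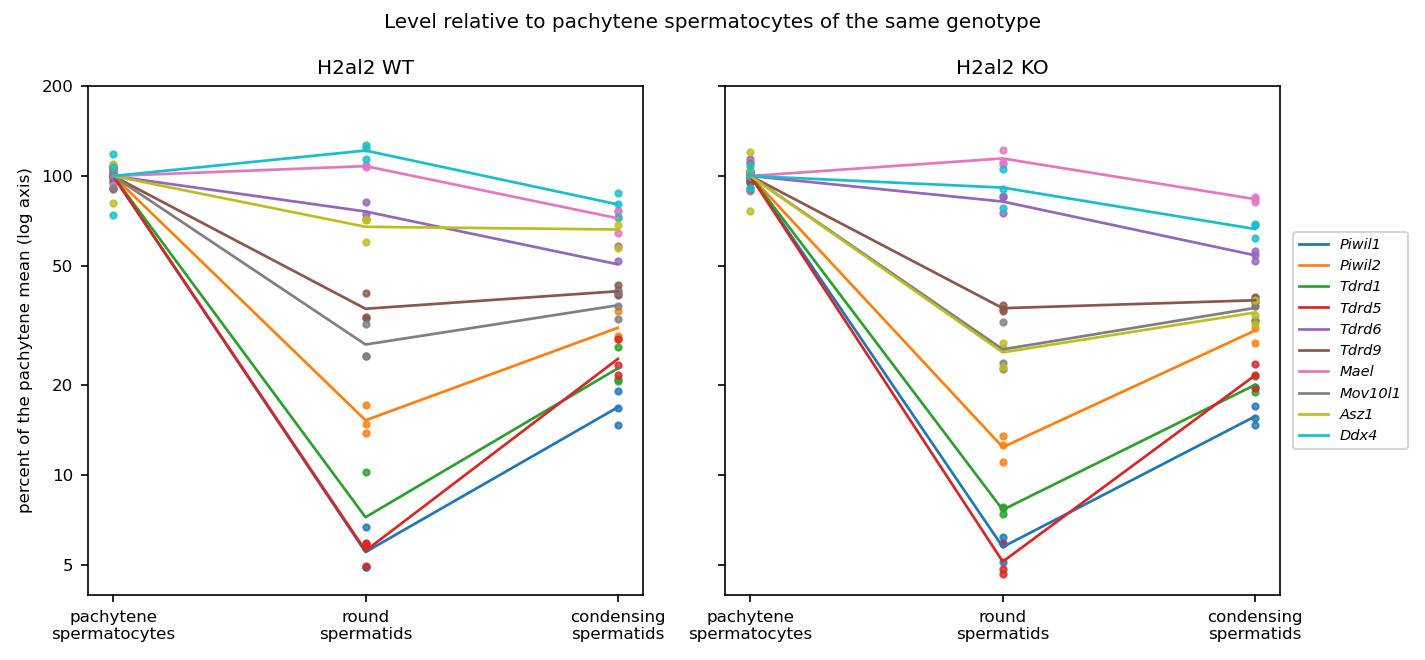
Level of each member as percent of its mean in pachytene spermatocytes of the same genotype (log axis), in pachytene spermatocytes, round spermatids and condensing spermatids, for wild type (left) and *H2al2* KO (right). Points are libraries (3 per group) and lines join the means. Wild-type *Piwil1*, *Tdrd5*, *Tdrd1* and *Piwil2* reach 5.52% to 15.2% in round spermatids and turn upward, and *Asz1* is the member whose line differs most by eye between the panels, with 67.6% in wild-type and 25.7% in KO round spermatids.

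The *H2al2* KO libraries were not used in the wild-type fits and repeat the stage series. From pachytene spermatocytes to round spermatids 8 of 10 members fell in KO, where 38.4% of 13877 genes tested fell, again without *Mael* (log2 fold change 0.17 ± 0.10, SE, edgeR adjusted p = 0.126) and *Ddx4* (-0.15 ± 0.12, SE, edgeR adjusted p = 0.247). *Mael* passed the test as higher with the DESeq2 Wald test (log2 fold change 0.22, DESeq2 adjusted p = 0.0453), without KO pachytene replicate 3 (0.24, edgeR adjusted p = 0.0431), and with at least 10 counts in every library (0.28, edgeR adjusted p = 0.0123). The small fall of *Tdrd6* in KO (edgeR adjusted p = 0.0126) was lost without KO pachytene replicate 3 (edgeR adjusted p = 0.0617) or KO round replicate 2 (edgeR adjusted p = 0.0790). It was also lost with at least 10 counts required in every library (edgeR adjusted p = 0.0777). *Ddx4* passed as lower with library size as the only scaling (-0.31, edgeR adjusted p = 0.0188). *Tdrd5* (-4.30 ± 0.12, SE), *Piwil1* (-4.14 ± 0.12) and *Tdrd1* (-3.73 ± 0.11) had the largest log2 fold changes in KO as in wild type, each with an edgeR adjusted p of 3.67e-15.

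KO *Piwil1* had 1128, 1177 and 1220.5 normalized CPM at the pachytene stage, then 69.4, 72.6 and 60.3 at the round and 199.6, 182 and 172 at the condensing stage. KO *Tdrd5* had 316, 303 and 324, then 18.4, 14.7 and 15.3, then 74.0, 67.8 and 61.3 normalized CPM. The stages did not overlap for either gene. *Mael* in KO was at 908, 1025 and 1134, then 1124, 1136 and 1251, then 855, 872 and 839 normalized CPM, with round spermatids overlapping pachytene spermatocytes.

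From KO round to condensing spermatids 6 members rose, where 29.7% of genes tested rose, and 3 fell, where 24.5% fell. The 5 that rose in wild type rose in KO, with log2 fold changes of 0.48 ± 0.13 (SE) for *Mov10l1* to 2.09 ± 0.12 (SE) for *Tdrd5*, and *Tdrd6*, *Mael* and *Ddx4* fell by 0.58, 0.44 and 0.45 on the log2 scale. *Asz1* was the sixth (0.46 ± 0.19, SE, edgeR adjusted p = 0.0455), a call that did not hold with the DESeq2 Wald test (DESeq2 adjusted p = 0.0703) or when KO round replicate 1 was left out (edgeR adjusted p = 0.142). It was likewise lost without KO pachytene replicate 2 (edgeR adjusted p = 0.0531), KO round replicate 2 (0.0551), KO round replicate 3 (0.0812), KO condensing replicate 1 (0.158) or KO condensing replicate 2 (0.0786). The fit on all 18 libraries did not call it either (edgeR adjusted p = 0.0551). Over the same step in KO, all 7 tested Sertoli cell markers (287 to 346 against 22.2 to 28.7 normalized CPM summed) and all 6 tested Leydig cell markers (78.5 to 117 against 6.04 to 9.34) were higher. Of 4 tested peritubular myoid markers 3 were higher and 1 lower (292 to 365 against 314 to 413 summed), and 0 of 4 tested macrophage markers passed. Of the 10 spermatocyte markers 4 were higher, *Hormad1* (log2 fold change 1.12), *Sycp1* (0.98), *Sycp2* (1.09) and *Sycp3* (1.27), and 3 lower, *Ccna1*, *Spo11* and *Syce1*, with sums of 1278 to 1405 against 908 to 1346 normalized CPM. Their part in the KO rise was not tested. In KO condensing spermatids all 10 members were below KO pachytene spermatocytes, where 39.5% of genes tested were. The smallest of these differences, that of *Mael* (-0.26 ± 0.10, SE, edgeR adjusted p = 0.0240), was lost without KO pachytene replicate 2 (edgeR adjusted p = 0.0685), KO pachytene replicate 3 (0.0792), KO condensing replicate 2 (0.0538) or KO condensing replicate 3 (0.0754). The *Mael* call was also lost with at least 10 counts required in every library (log2 fold change -0.099, edgeR adjusted p = 0.346) and with DESeq2 size factors (edgeR adjusted p = 0.0512).

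**Figure D3:**
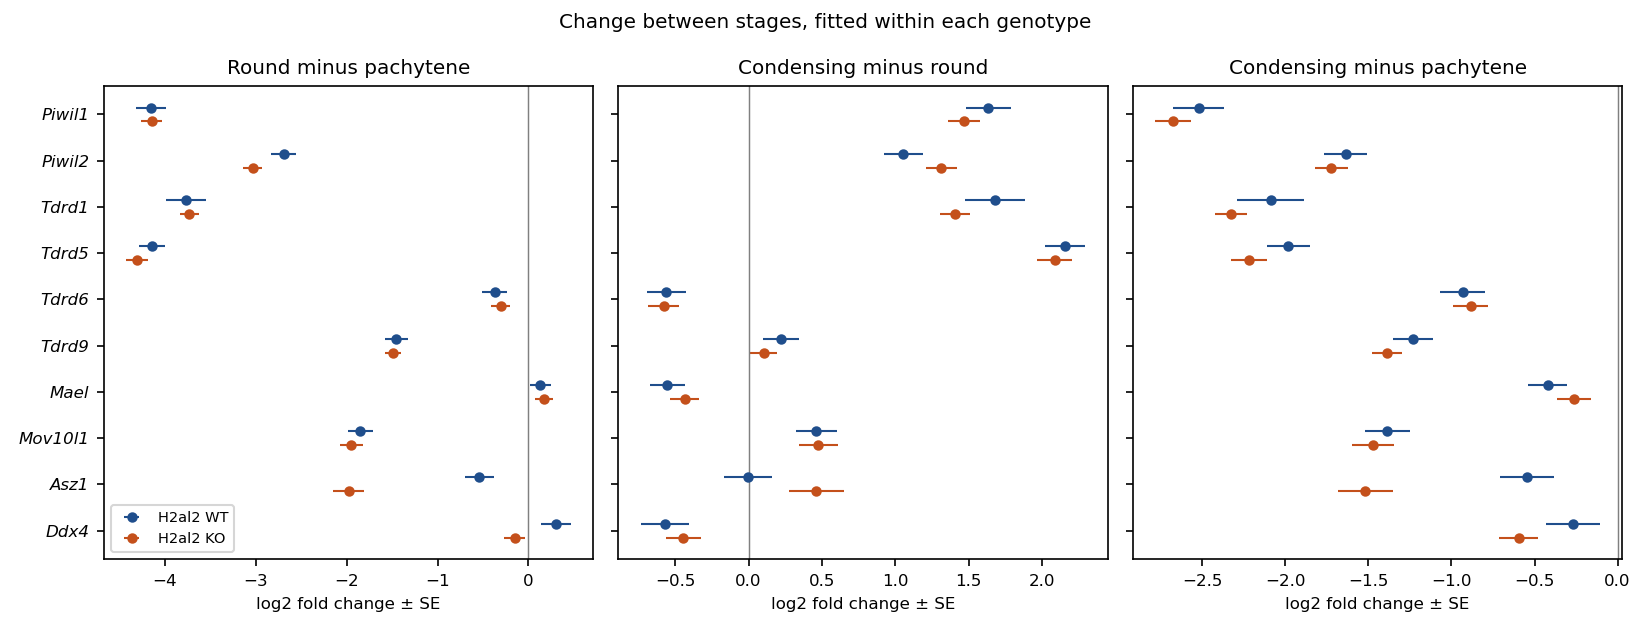
Log2 fold change (horizontal axis, with bars of 1 SE) of each member between stages, fitted on 9 wild-type libraries (blue) and on 9 *H2al2* KO libraries (orange). From pachytene to round spermatids *Piwil1*, *Tdrd1* and *Tdrd5* lie between -4.30 and -3.73 in both genotypes, and the 2 genotypes lie farthest apart for *Asz1* (-0.54 in wild type and -1.98 in KO).

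Between genotypes, no member passed the test in any stage. In pachytene spermatocytes 0 of 12236 genes tested passed (0.0%), in round spermatids 2 of 12804 (0.0156%) and in condensing spermatids 1 of 13734 (0.00728%), by edgeR. The DESeq2 Wald test called 2, 6 and 13 genes, none of them a member. Of the members, 2, 2 and 0 had an unadjusted p under 0.05 in the 3 stages, against 815, 753 and 870 of all genes tested. Leaving out *Asz1*, the log2 fold changes of the members between KO and wild type ran from -0.04 to 0.41 for pachytene spermatocytes, from -0.25 to 0.29 for round and from -0.14 to 0.10 for condensing spermatids, with standard errors of 0.07 to 0.20. A test that misses the threshold does not show equal levels. In condensing spermatids the summed Sertoli cell markers were 287 to 346 normalized CPM in KO against 355 to 452 in wild type. Leydig cell markers summed to 78.5 to 117 against 136 to 205. Their part in the member values was not tested.

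The genotypes did not overlap in 2 members in pachytene spermatocytes (*Tdrd1* and *Asz1*, both higher in KO), where 11.4% of genes tested did not overlap, in 1 in round spermatids (*Asz1*, lower in KO) against 9.89%, and in 1 in condensing spermatids (*Mael*, higher in KO) against 12.1%. *Tdrd1* had 664, 692 and 658 normalized CPM in KO and 614, 586 and 557 in wild-type pachytene spermatocytes (log2 fold change 0.26 ± 0.10, SE, edgeR adjusted p = 0.656). In round spermatids it had 52.0, 52.3 and 49.5 in KO against 59.7, 33.7 and 33.4 in wild type (0.29 ± 0.19, SE, edgeR adjusted p = 0.952), and without wild-type round replicate 1 the log2 fold change was 0.63 (edgeR adjusted p = 0.00638), when 264 genes in all were called. That replicate was the highest of the 3 for 7 members and the lowest for the other 3. *Piwil2* had 59.8, 48.6 and 55.5 normalized CPM in KO round spermatids against 73.5, 63.7 and 59.5 (-0.25 ± 0.11, SE, edgeR adjusted p = 0.801).

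**Figure D4:**
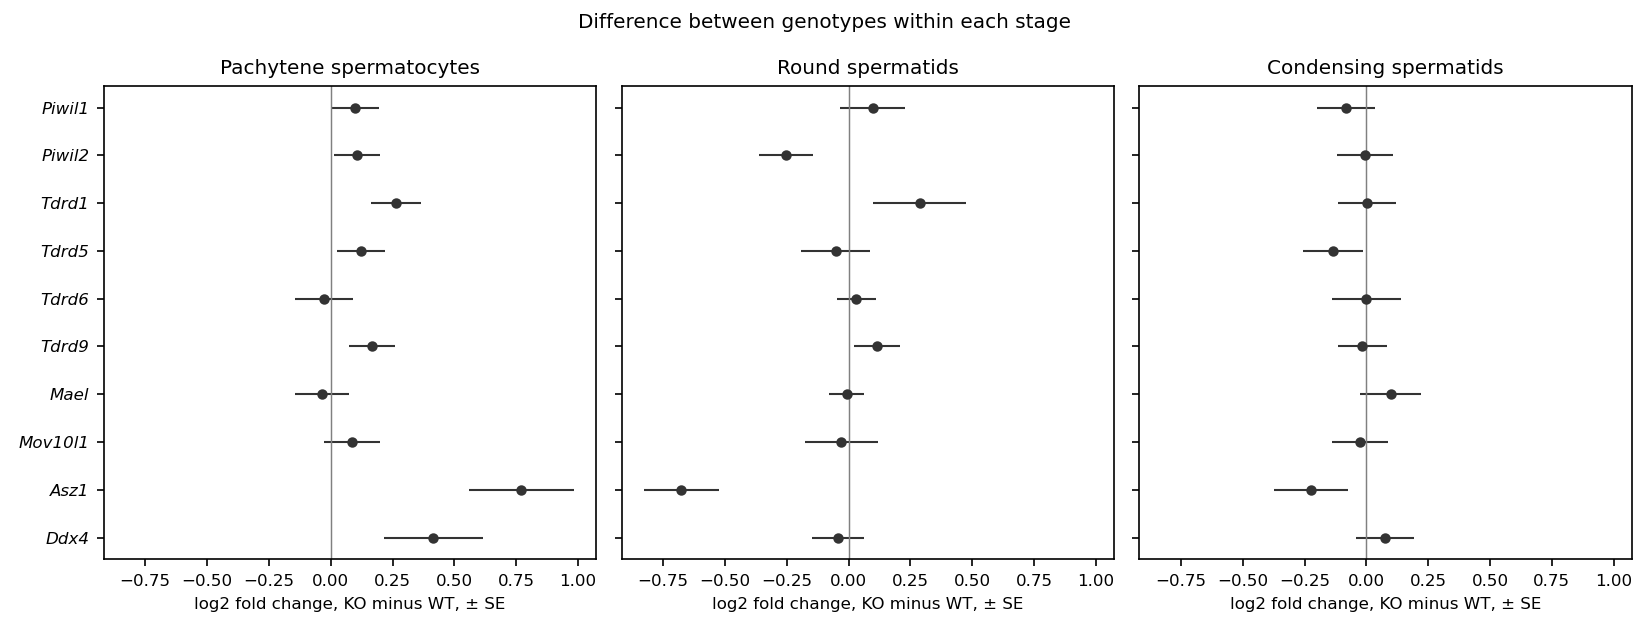
Log2 fold change between *H2al2* KO and wild type (horizontal axis, with bars of 1 SE) of each member within each of 3 stages, 3 libraries per genotype. *Asz1* lies at 0.77 at the pachytene and at -0.68 at the round stage, and no member passed the test in any stage.

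*Asz1* was the member that departed most between the genotypes. In pachytene spermatocytes it had 46.1, 39.8 and 29.2 normalized CPM in KO and 25.8, 19.08 and 25.6 in wild type, every KO library being higher (log2 fold change 0.77 ± 0.21, SE, unadjusted p = 0.00549 and adjusted p = 0.656, edgeR). In round spermatids it had 8.78, 10.6 and 10.2 in KO and 14.1, 16.7 and 16.8 in wild type, every KO library being lower (-0.68 ± 0.15, SE, unadjusted p = 0.000866 and adjusted p = 0.482, edgeR). In condensing spermatids, with 14.8, 13.1 and 12.3 against 13.5, 16.1 and 17.0, the genotypes overlapped (-0.22 ± 0.15, SE, edgeR adjusted p = 0.874). The difference between the KO effects in round spermatids and in pachytene spermatocytes was -1.45 ± 0.25 (SE, log2 scale, unadjusted p = 8.64e-06 and adjusted p = 0.125, edgeR), and 0 of 14479 genes passed this test (0.0%, 1050 genes at an unadjusted p under 0.05, and 1 gene by the DESeq2 Wald test). Of the difference between condensing and round spermatids, likewise 0 of 14479 genes passed (0.0%), with 407 genes at an unadjusted p under 0.05 and 0 by the DESeq2 Wald test. These values rest on 63 to 299 reads per library.

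The *Asz1* difference between stages passed the threshold with the DESeq2 Wald test (adjusted p = 0.00383), with no filter on low counts (edgeR adjusted p = 0.0167), without KO pachytene replicate 3 (edgeR adjusted p = 0.00826) and without wild-type round replicate 1 (edgeR adjusted p = 0.0330). Over 25 alternatives its value ran from -1.57 to -1.25 and its adjusted p from 0.00383 to 0.684. The difference within round spermatids passed without wild-type round replicate 1 (log2 fold change -0.75, edgeR adjusted p = 0.0249).

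The share of reads outside annotated exons differed between pachytene libraries. Several members differed, in either direction, between the libraries with the lowest and the highest share. It was 31.99%, 30.9% and 42.4% in wild-type and 47.7%, 43.9% and 37.4% in KO pachytene replicates 1 to 3. In the wild-type library with the lowest share *Asz1* had 19.08 and *Ddx4* 404 normalized CPM, and in the KO library with the highest share they had 46.1 and 706. *Ddx4* in pachytene spermatocytes had 706, 756 and 640.4 normalized CPM in KO and 587, 404 and 649 in wild type (log2 fold change 0.41 ± 0.20, SE, edgeR adjusted p = 0.656), with the same library lowest. *Mael* ran the other way, from 1157 to 908 normalized CPM between the libraries with the lowest and the highest share, and so did *Tdrd6*, from 2145 to 1820.3. *Piwil1* and *Tdrd5* had 1216 and 305 against 1128 and 316. Between the same 2 libraries 6 members were higher and 4 lower, and of 22 other pathway genes 9 were higher and 13 lower where the share was highest. Directions were not counted over all genes, so these splits have no background beside them. The 2 libraries also differ in genotype, which cannot be told apart from the share here. *Tex15* went from 22.0 to 149.8 and *Rnf17* from 155 to 376.5 normalized CPM, whereas *Ddx25* went from 588 to 427 and *Gtsf1* from 213 to 133. The summed spermatocyte markers were 991 to 1954 in wild-type and 1457 to 2325 normalized CPM in KO pachytene libraries. Summed Sertoli cell markers were 28.4 to 36.4 in wild-type and 12.0 to 23.0 in KO pachytene libraries, without overlap. Leydig cell markers (72.1 to 145 against 23.0 to 97.9) and condensing spermatid markers (2464 to 6016 against 3174 to 3501) overlapped. The part of the share or of these markers in the *Asz1* difference was not tested.

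**Figure D5:**
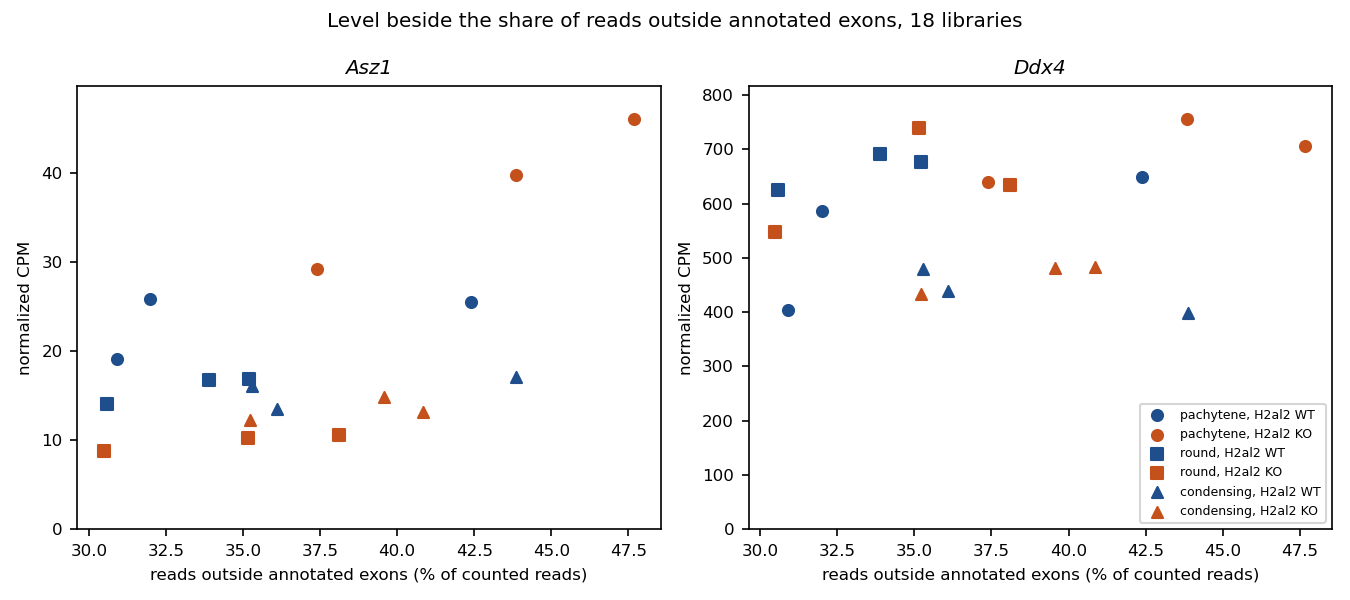
Normalized CPM of *Asz1* (left) and *Ddx4* (right) against the share of counted reads that fell outside annotated exons, in 18 libraries, with wild type in blue, KO in orange and stages by symbol. Among the 6 pachytene libraries *Asz1* ranges from 19.08 to 46.1, with its highest value in the library with the highest share (47.7%), whereas round and condensing spermatid libraries lie between 8.78 and 17.0.

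In spermatozoa, 9 of the 10 members were lower than in condensing spermatids in wild type, where 35.8% of 15116 genes tested were lower (edgeR, 2 and 3 libraries). The falls were largest for *Mael*, from 837, 836 and 706 to 149.7 and 174 normalized CPM (log2 fold change -2.27 ± 0.17, SE, edgeR adjusted p = 1.86e-10), *Ddx4*, to 109.7 and 84.3 (-2.15 ± 0.17, SE), and *Piwil2*, to 32.1 and 31.7 (-2.04 ± 0.17, SE). *Tdrd1* changed less, to 69.7 and 65.2 (-0.95 ± 0.16, SE, edgeR adjusted p = 2.13e-05). *Mov10l1* had 62.4 and 42.7, overlapping with its condensing values (-0.08 ± 0.17, SE, edgeR adjusted p = 0.712). *Asz1* was left with 16 and 17 reads per wild-type library. Markers of other cells moved over this step too. All 6 macrophage markers were higher (434 to 440.0 against 20.9 to 28.9 normalized CPM summed). Of 2 tested epididymis epithelium markers 1 was higher, and their list summed to 1499 to 1591 against 0.46 to 3.16 normalized CPM. *Crisp1* made up most of that sum, with means of 1543 against 0.72. Of 10 spermatocyte markers 9 were lower, as were all 7 tested Sertoli and 6 of 7 Leydig cell markers. Of 10 condensing spermatid markers 7 were lower and 1 higher. Their part in the lower member levels was not tested.

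The single KO spermatozoa library was below both wild-type libraries for all 10 members, as for 41.9% of genes with at least 1 CPM, and stood at 33.4% (*Mov10l1*) to 66.1% (*Mael*) of the wild-type mean. It has no replicate and no test was made. In the same library the 10 condensing spermatid markers summed to 11367 normalized CPM against 32576 and 36868 in wild type, and the 6 macrophage markers to 1630.5 against 434 and 440.0, none of them at 0. The part of this difference in composition in the lower member levels was not tested.

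The rest of the pathway was described from 24 further genes, of which 22 were found and 21 tested. From wild-type pachytene spermatocytes to round spermatids 13 of them fell and 4 rose, where 35.9% and 34.4% of all genes tested did, and the median log2 fold change was -1.38. *Pld6*, which encodes the mitochondrial nuclease that cuts piRNA precursors (Zucchini), fell from 166 ± 7.56 to 18.3 ± 3.30 normalized CPM (SD, n = 3, log2 fold change -3.15 ± 0.17, SE, edgeR adjusted p = 1.40e-08). *Prmt5*, the enzyme that methylates the arginines read by tudor proteins, fell from 62.8 ± 4.69 to 11.4 ± 0.74 (-2.43 ± 0.13, SE, edgeR adjusted p = 1.36e-08), and *Gpat2*, a mitochondrial acyltransferase that binds MILI, from 87.2 ± 4.97 to 17.96 ± 0.72 normalized CPM (-2.26 ± 0.12, SE, edgeR adjusted p = 1.09e-08).

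The genes that rose over this step included *Tex15*, a factor of PIWI-directed DNA methylation in fetal germ cells, from 53.3 ± 39.8 to 356 ± 146 normalized CPM (SD, n = 3, log2 fold change 2.76 ± 0.45, SE, edgeR adjusted p = 0.000113), a change with a wide spread among libraries. Without wild-type pachytene replicate 3 its log2 fold change was 3.55 (edgeR adjusted p = 2.71e-07). *Dnmt3l*, a cofactor of DNA methyltransferases, rose from 3.88 ± 1.89 to 14.3 ± 1.02 (1.87 ± 0.29, SE, edgeR adjusted p = 7.74e-05), and *Gtsf1*, a small zinc finger protein that aids PIWI cleavage, from 178 ± 40.2 to 288 ± 6.27 normalized CPM (0.72 ± 0.16, SE, edgeR adjusted p = 0.00128). *Piwil4* (MIWI2), the PIWI protein of fetal prospermatogonia, had at most 3 reads in any library of the first 3 stages.

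From wild-type round to condensing spermatids 9 of the 21 rose and 4 fell, where 28.3% and 21.8% of all genes tested did. *Tex19.1* (log2 fold change 1.11 ± 0.25, SE), *Stk31* (1.07 ± 0.22), a tudor domain kinase, and *Fkbp6* (0.97 ± 0.20), a co-chaperone of PIWI loading, rose most, and *Dnmt3l* (-1.25 ± 0.29), *Tdrd7* (-0.82 ± 0.12), a chromatoid body tudor protein, and *Ddx25* (-0.65 ± 0.13), an RNA helicase of round spermatids, fell most (edgeR adjusted p of 0.000186 to 0.00315). From pachytene to round spermatids *Tdrd7* had gone from a mean of 393 to 484 normalized CPM (0.32 ± 0.12, SE, edgeR adjusted p = 0.0319), and *Ddx25* had 537 in both (0.02 ± 0.13, SE, edgeR adjusted p = 0.883). From condensing spermatids to wild-type spermatozoa 16 fell, where 35.8% of all genes tested fell, and 1 rose, where 36.6% rose. The gene that rose was *Morc1*, with 38.5 and 13.4 normalized CPM in the 2 spermatozoa libraries and 6.45, 7.55 and 7.2 in condensing spermatids (log2 fold change 1.93 ± 0.31, SE, edgeR adjusted p = 9.18e-06). Without spermatozoa replicate 1 its log2 fold change was 0.95 (edgeR adjusted p = 0.0169). Between genotypes 0 of the 21 passed the test in each of the 3 stages, with 1, 1 and 0 at an unadjusted p under 0.05, against the 815, 753 and 870 of all genes tested given above.

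Across the 18 libraries of the first 3 stages, the genes outside the pathway lists whose log2 level correlated best with the median profile of the members were *Ptprs* (Pearson r = 0.994), *Prepl* (0.993), *Srrt* (0.993), *Mtl5* (0.993) and *Srsf2* (0.992), among 10160 genes with at least 5 CPM on average. These values are a description over libraries that share 3 stages. *Ptprs*, a receptor tyrosine phosphatase, had means of 159, 35.6 and 47.9 normalized CPM in wild-type pachytene, round and condensing libraries. *Mtl5* (tesmin), a testis protein first found in meiotic cells, had 457, 70.1 and 116. Of the members, *Mov10l1* (r = 0.991), *Tdrd9* (0.982) and *Piwil1* (0.981) lay closest to the median profile, and *Mael* (-0.01), *Ddx4* (0.11) and *Tdrd6* (0.58) lay farthest from it.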

How the data were processed

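The authors aligned paired-end reads from ribosome-depleted, strand-specific libraries to mm10 with STAR 2.7.11b and counted reads within exons with HTSeq (reverse strand, strict intersection, multiply aligned reads left out), and the raw counts were deposited, 1 file per library. Per the labels, the submitters' processing notes also name DESeq2 1.22.2. Rows that name no gene held 34.6% to 57.7% of counted reads and were left out.

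Counts were tested with edgeR 4.0.16 (quasi-likelihood, TMM, filterByExpr, R 4.3.3), adjusted by Benjamini-Hochberg over all genes tested, with 0.05 as the threshold. The procedure was tested on simulated data. Stage changes were fitted on the 9 libraries of each genotype, genotype differences on the 6 of each stage, and interactions on 18. Alternatives included DESeq2 1.42.0, other scalings, other filters on low counts and leaving out each replicate. Exon lengths came from GENCODE vM21 and promoters from RefSeq.

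The members and lists were chosen with earlier results of these data known. All members are named. Other pathway genes are named, at most 3 per direction, by the largest log2 fold change among those called with at least 1 CPM on average. Levels of *Rnf17*, *Tex15*, *Tdrd7*, *Ddx25*, *Gtsf1* and *Piwil4* given outside this rule, and single marker genes, were chosen after their values were seen. The 5 nearest patterns used log2(CPM + 0.5). The paper describes its wild-type round spermatid transcriptomes as independent biological replicates, without saying whether each came from 1 animal or a pool. No source used here says that replicates came from separate animals, so p-values measure only the spread between these samples.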

Additional observations from a re-analysis of the deposited data

Results flagged for a closer look

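The estimated effect of the KO on *Asz1* in round spermatids minus that in pachytene spermatocytes was -1.446 on the log2 scale. It was flagged because every KO library was higher than every wild-type library in pachytene spermatocytes and lower in round spermatids. The genotypes did not overlap in 11.4% and 9.89% of genes tested in these stages. Pachytene libraries also differed in the share of reads outside annotated exons, and its part was not tested. With the edgeR interaction test the unadjusted p was 8.64e-06 and the adjusted p 0.125, so the difference did not pass over all genes tested.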

How the results depend on the processing

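Over all alternatives, 1057 of 1100 member values between stages kept direction and side of the threshold, as did 822 of 900 between genotypes. None of those that changed sign was called in either setting, and the cause was not tested.

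The count of members called between genotypes in round spermatids was 0, and with the replicate block it was 1 (*Asz1*, log2 fold change -0.68, edgeR adjusted p = 0.0495, with 61 genes called in all against 2). The replicate numbers were not taken to pair the samples, since in 0 of 9 pairs of groups did every same-numbered pair correlate above 0.1. This rule cannot exclude pairing. Between wild-type and KO round spermatids the same-numbered correlations were 0.334, 0.147 and 0.0882 for replicates 1 to 3. Leaving out 1 replicate gave 0 to 2 members there, and 1 to 264 genes in all. For the difference between the KO effects in round spermatids and in pachytene spermatocytes, the count of 0 members became 1 with the DESeq2 Wald test and 1 with no filter on low counts, and ranged from 0 to 1 when a replicate was left out. In pachytene spermatocytes 0 to 243 genes in all were called when a replicate was left out, the most without wild-type replicate 3, against 0, and at most 4 otherwise. In condensing spermatids 1 to 27 were called against 1. With library size as the only scaling, the median of all genes moved to -0.20 from wild-type pachytene to round spermatids and 0.11 from round to condensing spermatids (log2 scale).

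Values that changed sign were small. With library size only, *Mael* was -0.054 between wild-type round and pachytene cells and 0.0050 between genotypes in round spermatids, *Asz1* was 0.060 between wild-type condensing and round spermatids, and *Tdrd1* was -0.030 between genotypes in condensing spermatids. *Asz1* was also 0.062 with at least 10 counts in every library and 0.011 with wild-type round replicates 2 and 3 summed. *Mael* between genotypes in round spermatids was 0.0022 with no filter. *Tdrd6* between genotypes in condensing spermatids was 0.0016 with the DESeq2 Wald test, 0.0016 with DESeq2 size factors, 0.0039 with no filter, 0.00065 with at least 10 counts, 0.010 with the replicate block and 0.0030 in the fit on 18 libraries. For the KO effect in round minus that in pachytene cells, *Piwil1* was -0.064 and *Tdrd1* -0.094 with the 2 replicates summed, and *Tdrd9* was 0.0082 with no filter. For condensing minus round, *Mov10l1* was -0.0059 with the DESeq2 Wald test, -0.0060 with DESeq2 size factors and -0.040 with library size only.

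With each replicate left out in turn, the following log2 values crossed 0. *Asz1* from wild-type round to condensing spermatids ran from -0.093 to 0.084, and *Mov10l1* from condensing spermatids to spermatozoa from -0.38 to 0.18. Between genotypes in pachytene spermatocytes, *Tdrd6* ran from -0.11 to 0.016, *Mael* from -0.098 to 0.021 and *Mov10l1* from -0.017 to 0.18. In round spermatids, *Tdrd5* ran from -0.15 to 0.012, *Tdrd6* from -0.0020 to 0.092, *Mael* from -0.059 to 0.031, *Mov10l1* from -0.20 to 0.10 and *Ddx4* from -0.16 to 0.069. In condensing spermatids, *Piwil1* ran from -0.16 to 0.010, *Piwil2* from -0.060 to 0.094, *Tdrd1* from -0.071 to 0.13, *Tdrd6* from -0.11 to 0.11, *Tdrd9* from -0.040 to 0.017 and *Mov10l1* from -0.10 to 0.064. For the KO effect in round minus pachytene cells, *Piwil1* ran from -0.030 to 0.22, *Tdrd1* from -0.072 to 0.41, *Tdrd9* from -0.052 to 0.095, *Mael* from -0.0013 to 0.16 and *Mov10l1* from -0.24 to 0.068. For condensing minus round, *Tdrd5* ran from -0.16 to 0.049, *Tdrd6* from -0.13 to 0.086 and *Mov10l1* from -0.11 to 0.20. *Asz1* had the lowest median count of the members, 108 reads, with 63 to 299 reads per library in the first 3 stages.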
